A study of Homo sapiens with 33 samples.

Results

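The butyrophilins are a family of membrane proteins of the immunoglobulin superfamily. The 7 genes described here are BTNL9, BTNL8, BTN2A1, BTN2A2, BTN3A1, BTN3A2 and BTN3A3, out of 62446 gene rows in the deposited count files, and all 7 were found by symbol. They were chosen by a measured value: BTNL9 had the largest log2 rise with prednisolone in CEM cells among named genes above a minimum level. That 1 contrast is therefore given as a description with no test. The other 6 genes are relatives named with it.

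The study sequenced RNA from human acute lymphoblastic leukaemia lines to compare glucocorticoid and Wnt-agonist treatment, with and without the co-repressor gene TLE1. There were 33 libraries in 11 groups of 3, and the series text describes 3 independent experiments. Nalm6, a B-cell precursor leukaemia line, was untreated, treated with CHIR-99021 at 0.5 µM or treated with prednisolone at 5 µM. A separate untreated Nalm6 group was deposited with Nalm6 treated with dexamethasone at 100 nM, and it served as their control. Nalm6 cells edited at TLE1 (TLE1 knockout) were untreated, treated with prednisolone at 5 µM or treated with dexamethasone at 100 nM; whether they are 1 clone or a pool is not given in the sources used here. CEM, a T-cell leukaemia line, was untreated, treated with CHIR-99021 at 2 µM or treated with prednisolone at 10 µM. All treatments lasted 24 h, and all Nalm6 and knockout cells, controls included, were kept in medium with charcoal-stripped serum, which is depleted of steroids. One protocol label swaps prednisolone and CHIR-99021 between the parental and the knockout cells, and the sample titles were followed.

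Column 4 summed to between 25292579 and 61930057 gene counts in a library, and 36.0% to 49.2% of the reads were assigned to no gene. All 8 B-cell precursor markers were above 1 CPM (a gene's counts scaled by its library's gene total) in Nalm6 and in the knockout, and all 8 T-cell markers were above 1 CPM in CEM, where PAX5 and EBF1 were under 1 CPM. Markers of other blood cells summed to 0.0591 to 7.17 CPM. TLE1 itself was at 30.2 to 34.0 CPM and 26.0 to 27.9 CPM in the 2 untreated Nalm6 groups and 24.0 to 25.4 CPM in untreated knockout cells. A gene total does not show whether a small edit removed the protein, and under prednisolone TLE1 was at 54.5 to 69.0 CPM in the knockout and 110 to 116 CPM in Nalm6; under dexamethasone it was at 55.3 to 59.0 and 129 to 134 CPM. The file names fall into 3 patterns: 1 holds both untreated and prednisolone groups of Nalm6 and knockout with Nalm6 CHIR-99021, another the Nalm6 dexamethasone pair and CEM, and the third only the knockout with dexamethasone. Of genes tested, 50.2% differed between the 2 untreated Nalm6 groups (edgeR quasi-likelihood test, adjusted p under 0.05, as in all calls here). Differences between groups of different patterns therefore cannot be told apart from differences between those sets. The p-values measure the spread between the 3 libraries of each group.

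As background, BTN2A1 and the BTN3A proteins sit together on the cell surface and let the main circulating subset of gamma-delta T cells sense phosphoantigens, small metabolites of the mevalonate pathway and of microbes. BTN3A1 binds the phosphoantigen with its cytoplasmic domain, and BTN3A2 lacks that domain. BTN2A2 is known as an inhibitor of T-cell activation, BTNL8 works with BTNL3 in gut epithelium, and BTNL9 is among the less studied members. Glucocorticoids such as prednisolone and dexamethasone act through the glucocorticoid receptor, a transcription factor that binds DNA elements built from a pair of inverted half-sites, and they kill many lymphoid leukaemia cells. CHIR-99021 inhibits the kinase GSK3 and so activates Wnt signalling. TLE1 is a Groucho-type co-repressor that is brought to DNA by other factors.

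The RefSeq promoter table (GRCh38.p14) holds 5 of the 7 genes, in 6 windows. The 4 promoters below are shown because BTNL9 carries the largest responses of the family and because BTN3A2, BTN3A3 and BTN2A1 share a short pair of elements. Each run is the 250 bases before the annotated start on the plus strand, 5′ to 3′. Capitals mark the glucocorticoid half-site in BTNL9, and the X box core and CCAAT boxes in the other 3.

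BTNL9, chr5:181040016-181040265: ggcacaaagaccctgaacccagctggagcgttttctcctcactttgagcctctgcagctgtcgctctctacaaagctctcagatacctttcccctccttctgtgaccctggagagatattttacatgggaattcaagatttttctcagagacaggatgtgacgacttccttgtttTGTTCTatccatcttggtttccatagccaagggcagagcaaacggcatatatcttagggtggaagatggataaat

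BTN3A2, chr6:26364948-26365197: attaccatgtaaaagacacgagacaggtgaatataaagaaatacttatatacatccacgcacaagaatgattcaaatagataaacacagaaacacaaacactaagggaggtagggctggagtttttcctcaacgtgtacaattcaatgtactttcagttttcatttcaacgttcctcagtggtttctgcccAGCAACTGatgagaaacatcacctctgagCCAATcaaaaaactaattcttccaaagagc

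BTN3A3, chr6:26440254-26440503: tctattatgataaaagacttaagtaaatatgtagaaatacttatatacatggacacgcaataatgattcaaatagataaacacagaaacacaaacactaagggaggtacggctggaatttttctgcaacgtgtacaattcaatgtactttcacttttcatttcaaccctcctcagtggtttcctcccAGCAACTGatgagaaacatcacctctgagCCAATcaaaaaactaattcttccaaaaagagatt

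BTN2A1, chr6:26457705-26457954: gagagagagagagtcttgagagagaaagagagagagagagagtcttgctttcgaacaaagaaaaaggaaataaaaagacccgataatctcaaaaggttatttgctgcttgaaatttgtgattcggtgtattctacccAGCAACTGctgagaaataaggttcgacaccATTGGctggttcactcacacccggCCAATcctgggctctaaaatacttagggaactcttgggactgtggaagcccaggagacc

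Motifs were searched on both strands from 250 bases before to 50 bases after the start. BTNL9 held 1 glucocorticoid half-site (AGAACA, read as TGTTCT on the printed strand) whose first base lies at -75; 14.8% of 35116 promoters hold this half-site. BTNL8, which was near 0 in all groups, also held 1, with its first base at 0. No window of the 5 genes held the full glucocorticoid element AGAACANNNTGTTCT with up to 2 mismatches in its 12 fixed letters, which 1.41% of promoters hold. The X box core AGCAACNG, bound by the RFX factors in promoters of major histocompatibility complex (MHC) genes, began at -59 in BTN3A2, -63 in BTN3A3 and -113 in BTN2A1, and 4.21% of promoters hold it. The CCAAT box, the letters CCAAT, began at -30 in BTN3A2, -34 in BTN3A3, at -83 and -59 in BTN2A1 and at -211 and -128 in BTNL8, and 34.6% of promoters hold it. The second BTN3A2 window held neither the X box core nor a CCAAT box. An X box core followed within 40 bases by a CCAAT box occurred in 106 of 35116 promoters, or 0.302%, these 3 included. The X box was added to the search after these sequences had been read. BTN3A2 and BTN3A3 had 220 identical bases among 245 aligned, or 88% of the 250-base window, against 56% to 60.8% for the other pairs of windows. The interferon-stimulated element GAAANNGAAA occurred once, in BTN3A3 after the start at 35, and the Wnt-factor element CTTTGAA once, in BTNL8 at -64; 3.57% and 4.43% of promoters hold them.

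BTNL9 was low in untreated Nalm6 and rose strongly under both glucocorticoids. It stood at 11.4, 12.6 and 12.1 CPM in the 3 untreated Nalm6 libraries and at 75.4, 78.8 and 76.7 CPM after prednisolone. In the dexamethasone pair it stood at 13.8, 15.8 and 16.6 CPM untreated and at 185, 182 and 177 CPM treated. No treated library came near an untreated one in either pair. In these bulk libraries, more RNA per cell and more cells with the RNA cannot be told apart. The log2 fold change was 2.65 ± 0.05 (SE, n = 3 per group) for prednisolone and 3.53 ± 0.06 for dexamethasone, with edgeR adjusted p of 3.44e-17 and 2.95e-15. The doses and the controls of these comparisons differ, so the values stand side by side only. Prednisolone changed 54.8% of the genes tested in Nalm6 and dexamethasone 60.5%, and BTNL9 had a larger log2 fold change than all but 1.54% and 1.34% of them.

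In the TLE1 knockout the rise of BTNL9 was smaller. The untreated knockout stood at 13.0, 12.0 and 12.1 CPM, overlapping untreated Nalm6, and the difference of 0.07 in log2 did not pass the test (edgeR adjusted p = 0.536). Prednisolone brought the knockout to 24.4, 29.5 and 27.8 CPM, above every untreated library and below every prednisolone-treated Nalm6 library. The log2 fold change in the knockout was 1.10 ± 0.09 (edgeR adjusted p = 4.96e-06). The test of the difference between the lines, knockout response minus parental response, gave -1.53 ± 0.09 with a 95% interval from -1.71 to -1.35 (edgeR adjusted p = 1.65e-07). Only 3.48% of 17952 genes passed this test, and BTNL9 had the smallest p among them, with 143 genes showing a more negative difference. This comparison lies within 1 pattern of file names. The prednisolone-treated Nalm6 libraries, however, are numbered in the series among the CEM and dexamethasone groups, apart from the other groups compared here. Whether that numbering goes with a difference between sets was not tested.

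Dexamethasone in the knockout gave BTNL9 levels of 35.2, 34.9 and 33.9 CPM, against 177 to 185 CPM in dexamethasone-treated Nalm6. The log2 fold change over the untreated knockout was 1.50 ± 0.06 (edgeR adjusted p = 5.32e-08), in a comparison that called 52.3% of genes. Knockout against parental cells under dexamethasone differed by -2.38 ± 0.03 (edgeR adjusted p = 1.10e-21), where 56.6% of genes were called. Both comparisons cross patterns of file names, so drug or genotype and set cannot be told apart in them. The direction was that of the prednisolone comparison, in which the treated Nalm6 libraries are numbered apart from the other groups. The shared direction does not tell genotype and set apart.

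In CEM, the line that chose the gene, BTNL9 had 6, 6 and 8 counts in the untreated libraries, a mean of 0.166 ± 0.0610 CPM (SD, n = 3). Prednisolone gave 1845, 1597 and 1528 counts, or 42.5, 40.1 and 43.5 CPM. The fitted log2 fold change was 7.99 ± 0.11, a 253-fold difference. This SE was derived from the test statistic and understates the error, because the untreated libraries hold so few counts. The ranking that placed BTNL9 first covered genes with a symbol and an average log2 CPM of at least 1. The next genes in that ranking were EPGN, an epidermal growth factor family member, at 6.41 and TSC22D3, a classical glucocorticoid target, at 5.96. The untreated counts are few, and without untreated library 3 the value was 8.26.

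The untreated lines differed in BTNL9 by -6.60 ± 0.17 in log2, CEM minus Nalm6 (edgeR adjusted p = 6.20e-13), in a comparison that called 77.5% of genes. Both groups share 1 pattern of file names. The SE again understates the error, because untreated CEM had only 6 to 8 counts. CHIR-99021 moved BTNL9 in neither line past the test, though 2 of 7 alternatives that kept every library called it in Nalm6. In Nalm6 the level was 10.3 ± 0.316 CPM against 12.0 ± 0.614 CPM, with a log2 difference of -0.22 (edgeR adjusted p = 0.0575), although the 3 treated libraries, up to 10.6 CPM, lay below the 3 untreated ones. In CEM the difference was 0.28 with a 95% interval from -0.70 to 1.26, at 4, 11 and 10 counts after CHIR-99021. Between the 2 untreated Nalm6 groups BTNL9 differed by 0.42 (edgeR adjusted p = 4.58e-04).

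**Figure D1:**
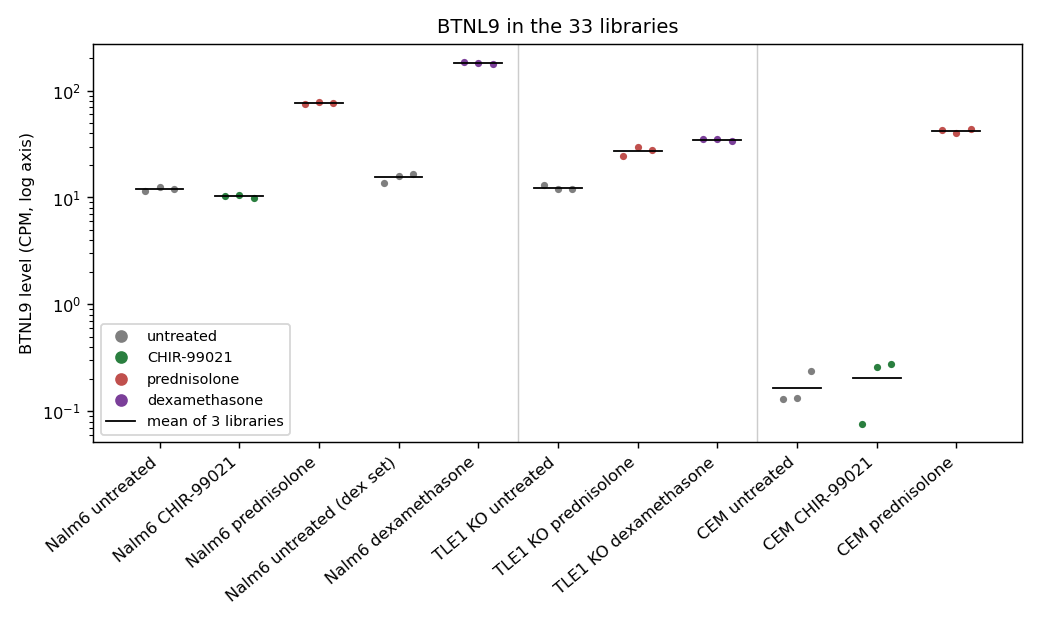
BTNL9 level in CPM on a log axis in each of the 33 libraries (points, 3 per group) with the group mean (black line); grey lines part Nalm6, TLE1 knockout and CEM. The 5 glucocorticoid-treated groups lie above their untreated groups, from 182 CPM in Nalm6 with dexamethasone to 27.2 CPM in the knockout with prednisolone, and untreated CEM lies lowest at 0.166 CPM.

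Ordered by mean, BTNL9 ran from dexamethasone-treated Nalm6 (182 CPM) through prednisolone-treated Nalm6 (77.0), prednisolone-treated CEM (42.0), knockout with dexamethasone (34.7) and knockout with prednisolone (27.2) to the dexamethasone set's untreated Nalm6 (15.4). Below these came the untreated knockout (12.4), untreated Nalm6 (12.0), Nalm6 with CHIR-99021 (10.3), CEM with CHIR-99021 (0.204) and untreated CEM (0.166). Neighbours in this order overlapped in their libraries only between the untreated knockout and untreated Nalm6 and between the 2 lowest CEM groups. Per kilobase of annotated exon (5.57 kb for BTNL9), the level ran from 0.0298 to 32.6 CPM per kb. The genes whose mean log2 CPM over the 11 groups was most like that of BTNL9 by Pearson correlation were FMO5 (0.98), ZC3HAV1 (0.96), CCT8P1 (0.96), RPS6KA2 (0.95) and FLI1 (0.94). These 11 points share controls, lines and treatments, and the correlation is a description. FMO5, a flavin-containing monooxygenase, stood at 3.60 CPM in untreated Nalm6, 13.2 CPM after prednisolone and 7.91 CPM in the knockout after prednisolone, and at 0.475 and 8.14 CPM in CEM without and with prednisolone.

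BTNL8, the neighbour of BTNL9 on chromosome 5, was at 0 counts in 29 of 33 libraries. The other 4 libraries held 2 counts at most and 6 counts together, under the 3 counts that a library at 0 allows. It passed the filter on low counts in no comparison, so 6 of the 7 genes were tested throughout. BTNL3, its partner, was at 0 in every library.

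BTN2A2, the T-cell inhibitor, rose under both glucocorticoids in Nalm6 and in the knockout, with log2 fold changes from 0.81 to 0.92. Untreated Nalm6 stood at 33.3, 34.0 and 34.1 CPM and prednisolone-treated Nalm6 at 61.4, 68.6 and 65.2 CPM, with no overlap. The log2 fold change was 0.92 ± 0.04 (edgeR adjusted p = 1.65e-11). Dexamethasone took Nalm6 from 33.5, 30.8 and 31.3 CPM to 61.1, 61.9 and 58.5 CPM, a change of 0.89. In the knockout, BTN2A2 went from 36.9, 32.3 and 35.2 CPM to 65.5, 59.2 and 64.6 CPM with prednisolone (0.82) and to 60.7, 60.0 and 59.9 CPM with dexamethasone (0.81). The difference between the prednisolone responses was -0.07 with a 95% interval from -0.24 to 0.10 (edgeR adjusted p = 0.720). CEM had 40.1 CPM of BTN2A2 untreated and 42.2 CPM with prednisolone, a difference of 0.04 given as a description.

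BTN2A1, the ligand of the gamma-delta receptor in the phosphoantigen complex, rose less. In Nalm6 it went from 34.3, 33.9 and 33.6 CPM to 44.8, 51.0 and 48.3 CPM with prednisolone, a log2 fold change of 0.48. With dexamethasone it went from 36.5, 35.6 and 35.5 CPM to 48.0, 51.6 and 49.0 CPM, a change of 0.43. The knockout rose from 33.5, 32.0 and 32.6 CPM to 45.1, 43.9 and 42.8 CPM with prednisolone (0.39) and to 45.8, 43.2 and 41.9 CPM with dexamethasone (0.43). All 4 changes passed edgeR's test, no treated library overlapped its controls, and the prednisolone responses of the lines differed by -0.06 with an interval from -0.21 to 0.09. Under dexamethasone the knockout was 0.17 lower than Nalm6 in log2 (-0.17, edgeR adjusted p = 0.00128). That comparison crosses patterns of file names, so genotype and set cannot be told apart in it. Between the 2 untreated Nalm6 groups BTN2A1 differed by 0.14 (edgeR adjusted p = 0.0161). CEM had 43.7 CPM of BTN2A1 untreated and 44.5 CPM with prednisolone, with a fitted difference of 0.00. CHIR-99021 moved neither BTN2A gene past edgeR's adjusted test in either line; the largest difference in CEM was 0.10 for BTN2A2, with a 95% interval from 0.01 to 0.18 (adjusted p = 0.187). Over all 11 groups, BTN2A1 spanned only 32.7 to 49.5 CPM and BTN2A2 30.8 to 65.1 CPM; per kilobase, untreated Nalm6 had 8.97 CPM per kb of BTN2A1 and 5.28 CPM per kb of BTN2A2.

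**Figure D2:**
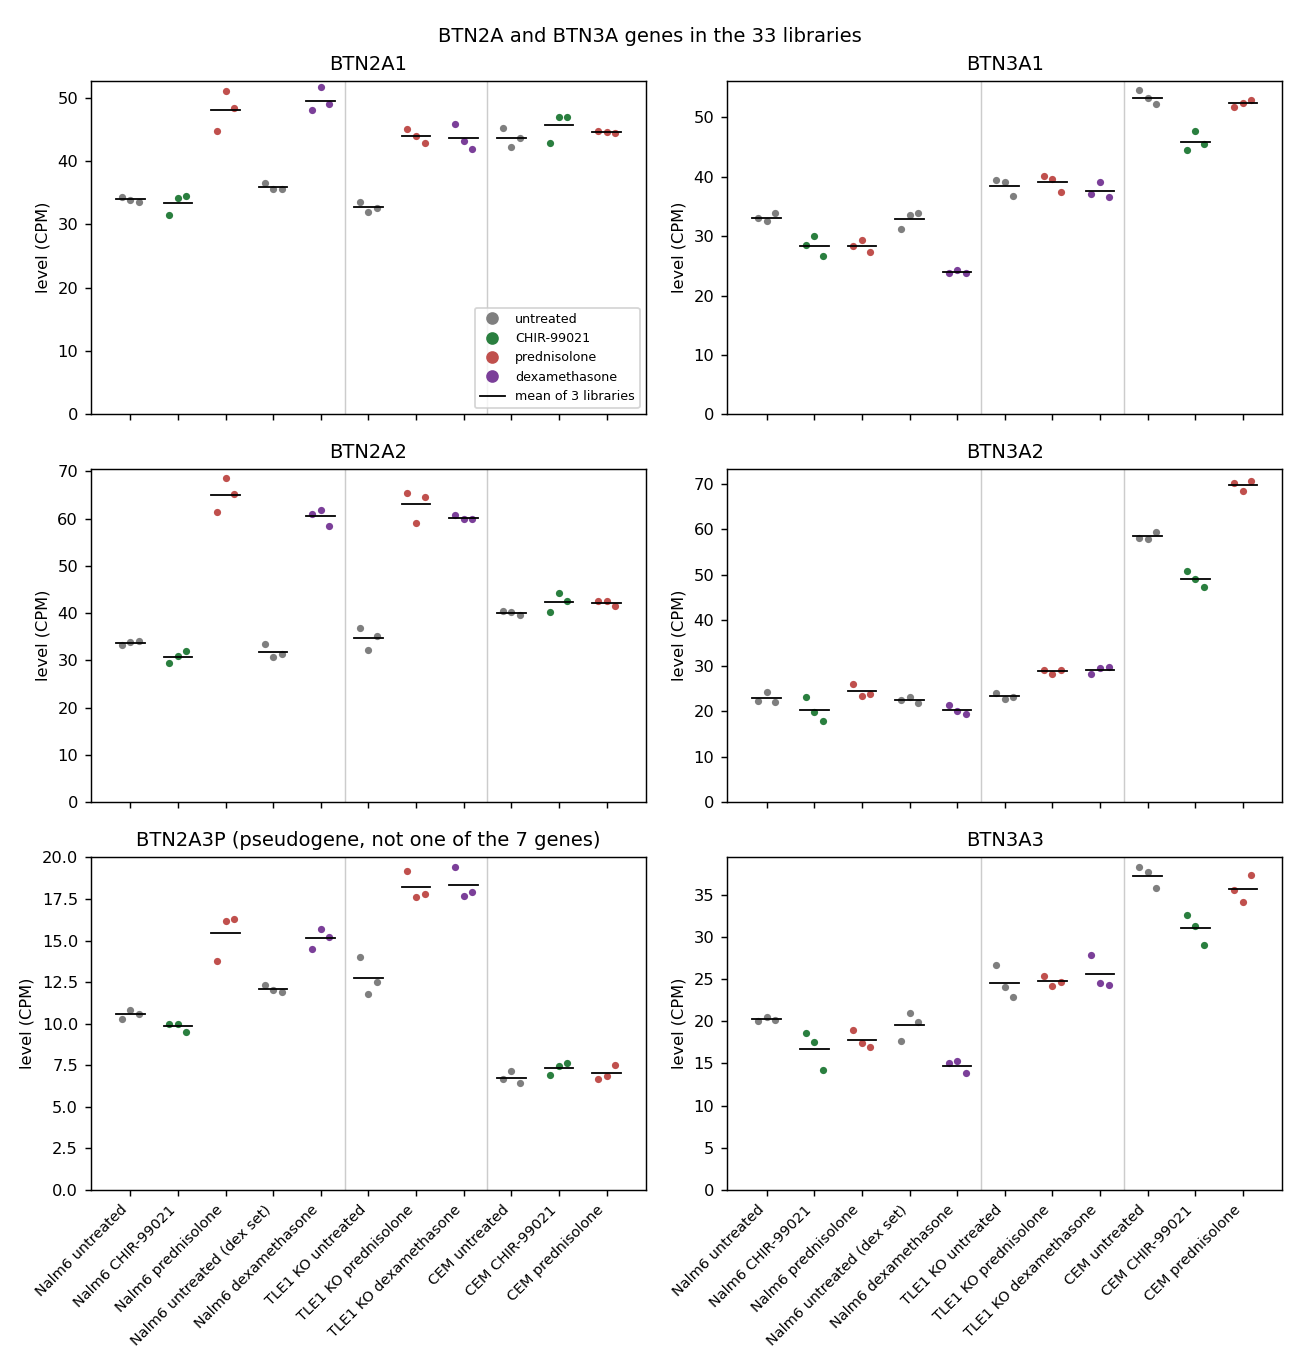
Level in CPM of BTN2A1, BTN2A2, the related pseudogene BTN2A3P and the 3 BTN3A genes in each library (points) with the group mean (black line), on axes that start at 0. The BTN2A genes are higher in glucocorticoid-treated Nalm6 and knockout cells and level in CEM, and the BTN3A genes are highest in CEM, where all 3 are lower with CHIR-99021.

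Of the BTN3A genes, which form the phosphoantigen-sensing part of the complex, BTN3A1 and BTN3A3 fell with both glucocorticoids in parental Nalm6, and BTN3A2 fell with dexamethasone. BTN3A1, the phosphoantigen-binding member, stood at 32.5 to 33.9 CPM untreated and 28.3, 29.3 and 27.3 CPM with prednisolone, all 3 lower. The log2 fold change was -0.26 (edgeR adjusted p = 1.17e-04). With dexamethasone it went from 31.2, 33.6 and 34.0 CPM to 23.9, 24.3 and 23.8 CPM, a change of -0.49. BTN3A3 went from 20.0, 20.5 and 20.2 CPM to 19.0, 17.4 and 17.0 CPM with prednisolone (-0.22, edgeR adjusted p = 0.00225) and from 17.7, 21.0 and 19.9 CPM to 15.0, 15.3 and 13.9 CPM with dexamethasone (-0.44). BTN3A2, which lacks the phosphoantigen-binding domain, did not pass the test with prednisolone (0.06) and fell with dexamethasone from 22.4, 23.1 and 21.9 CPM to 21.4, 20.0 and 19.5 CPM (-0.18, edgeR adjusted p = 0.0113).

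In the knockout, BTN3A1 and BTN3A3 did not pass the test with either glucocorticoid, and BTN3A2 rose. BTN3A1 stood at 39.4, 39.2 and 36.8 CPM untreated and 40.1, 39.6 and 37.5 CPM with prednisolone, with a fitted difference of -0.02 for each glucocorticoid. For BTN3A3 the differences were -0.03 and 0.07. BTN3A2 rose from 24.0, 22.6 and 23.2 CPM to 29.1, 28.2 and 29.0 CPM with prednisolone (0.27, edgeR adjusted p = 0.00887) and to 28.1, 29.6 and 29.8 CPM with dexamethasone (0.34, edgeR adjusted p = 0.00112). The test of the difference between the prednisolone responses passed for none of the 3: it gave 0.26 for BTN3A1 (edgeR adjusted p = 0.0606), 0.23 for BTN3A2 (0.201) and 0.21 for BTN3A3 (0.265). For BTN3A1 the call depended on the fit, and DESeq2 gave an adjusted p of 0.0384. Before treatment, BTN3A1 was higher in the knockout than in Nalm6 by 0.24 (edgeR adjusted p = 0.00802) and BTN3A3, at 26.7, 24.1 and 22.9 CPM, by 0.31 (edgeR adjusted p = 0.00744); 27.1% of genes were called there, and without untreated Nalm6 library 2 the adjusted p for BTN3A1 was 0.0560. Under dexamethasone the knockout exceeded Nalm6 by 0.66, 0.53 and 0.81 for BTN3A1, BTN3A2 and BTN3A3, across patterns of file names.

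CEM had more of each BTN3A gene than Nalm6, by 0.66 for BTN3A1, 1.34 for BTN3A2 and 0.90 for BTN3A3 in log2, and all passed edgeR's test. That comparison called 77.5% of all genes, and 40.2% were higher in CEM. CHIR-99021 lowered all 3 in CEM. BTN3A1 went from 54.6, 53.3 and 52.2 CPM to 44.5, 47.7 and 45.6 CPM (-0.20, edgeR adjusted p = 0.00731). BTN3A2 went from 58.2, 57.8 and 59.5 CPM to 50.8, 49.0 and 47.3 CPM (-0.23, edgeR adjusted p = 0.00312), and BTN3A3 from 38.3, 37.7 and 35.8 CPM to 32.6, 31.3 and 29.1 CPM (-0.25, edgeR adjusted p = 0.00941). No treated library overlapped an untreated one, but without untreated CEM library 1 the adjusted p for BTN3A3 was 0.0505. CHIR-99021 called 10.8% of genes in CEM and 7.88% in Nalm6. In Nalm6 BTN3A1 went from 33.1 to 28.4 CPM (-0.22, edgeR adjusted p = 0.0390), a call lost when any of 4 libraries was left out, while BTN3A2 (-0.18) and BTN3A3 (-0.27, edgeR adjusted p = 0.0847) did not pass. With prednisolone in CEM, given as a description, BTN3A2 was at 69.8 CPM against 58.5 CPM untreated (0.23), and BTN3A1 and BTN3A3 differed by -0.06 and -0.10.

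Sequence sharing limits how well the BTN3A genes can be told apart. Of all 50-base windows of their annotated transcripts, 14.7% for BTN3A3, 12.7% for BTN3A2 and 7.22% for BTN3A1 also occur in another gene of the family. The shares were 4.89% for BTN2A1, 2.5% for BTN2A2 and 0% for BTNL9. Across the 11 groups the mean log2 CPM of BTN3A1 correlated with BTN3A3 at 0.99 and with BTN3A2 at 0.91, and that of BTN2A1 with BTN2A2 at 0.80, while BTNL9 with BTN3A1 gave -0.67; the points share controls. Outside the family, the genes most like BTN3A1 were KLHL3 and HIBADH (0.97 each), those most like BTN2A2 were PPP1R16B (0.99), DNMT3B and YBX3 (0.98 each), and those most like BTN2A1 were SENP7 (0.97), PICK1 and GOLGA1 (0.96 each).

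**Figure D3:**
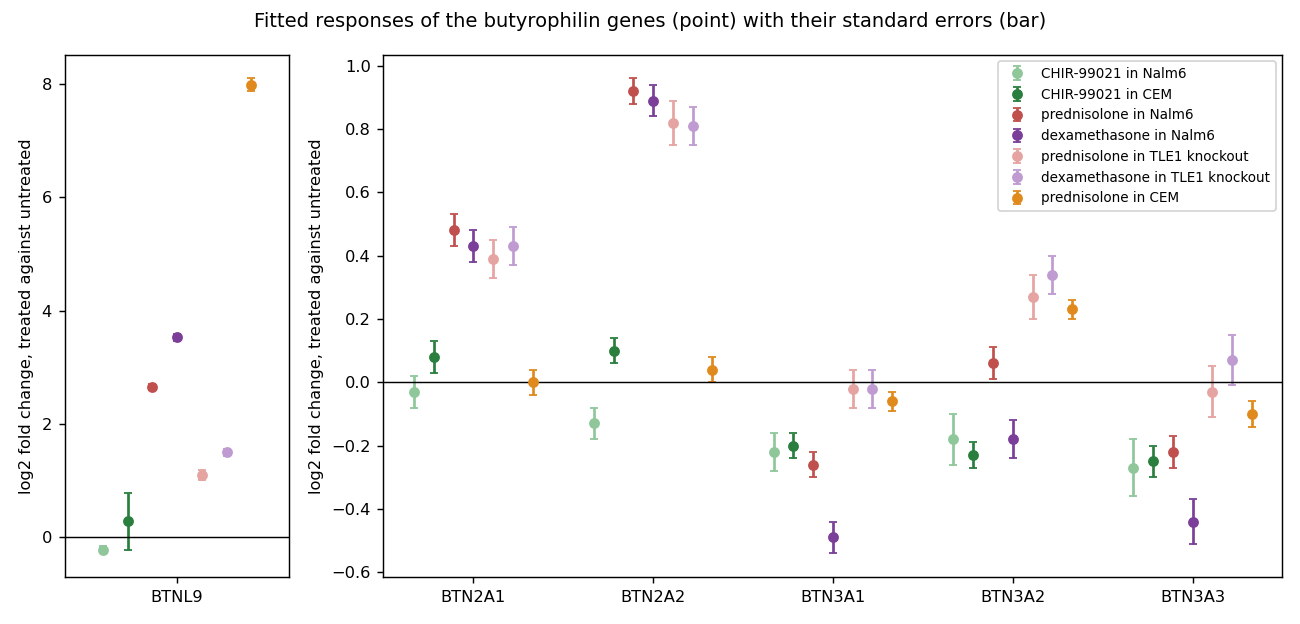
Fitted log2 fold change of treated against untreated cells (point) with its standard error (bar), coloured by comparison. BTNL9 is on the left with its own axis, and the other 5 tested genes are on the right. The bar of BTNL9 with prednisolone in CEM is too short, given its few untreated counts. The BTN2A genes lie above 0 in the 4 glucocorticoid comparisons of Nalm6 and knockout and near 0 in CEM, BTN3A1 and BTN3A3 lie lowest with dexamethasone in Nalm6 (-0.49 and -0.44), and BTNL9 reaches 7.99 in CEM.

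Counted over the 6 genes tested, prednisolone called 5 in Nalm6 (3 higher, 2 lower; 54.8% of all genes) and 4 in the knockout (all higher; 41.7%). Dexamethasone called 6 in Nalm6 (3 higher, 3 lower; 60.5%) and 4 in the knockout (all higher; 52.3%). CHIR-99021 called 1 in Nalm6 (lower; 7.88%) and 3 in CEM (all lower; 10.8%). The median log2 fold change of the 6 genes was 0.27 and 0.12 for prednisolone and dexamethasone in Nalm6, against 0.03 and 0.02 over all genes, and 0.33 and 0.39 in the knockout, against 0.00 and -0.01. It was -0.20 and -0.06 for CHIR-99021 in Nalm6 and CEM, against -0.01 and 0.00. In the test of the lines' difference in prednisolone response BTNL9 was the 1 gene called of 6, beside 3.48% of all genes. The untreated knockout against untreated Nalm6 called 2 of 6 (both higher; 27.1%), the knockout against Nalm6 under dexamethasone 5 (3 higher, 2 lower; 56.6%), CEM against Nalm6 6 (5 higher, 1 lower; 77.5%) and the 2 untreated Nalm6 groups 2, BTNL9 and BTN2A1 (50.2%). These shares of the 6 genes are to be read against the shares of all genes, which are large. The comparisons within a line share their untreated libraries, except in Nalm6 between dexamethasone and the others.

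The listed transcription factors and co-activators of butyrophilin or MHC promoters (14 genes) were split. In Nalm6, 4 rose and 6 fell with prednisolone and 6 rose and 7 fell with dexamethasone, with medians of -0.05 and -0.10, where 54.8% and 60.5% of all genes were called. In the knockout, 3 rose and 7 fell with prednisolone and 6 rose and 3 fell with dexamethasone, beside 41.7% and 52.3% of all genes called. CIITA, the master activator of MHC class II genes, rose in Nalm6 from 278 ± 8.45 to 881 ± 47.2 CPM with prednisolone (SD, n = 3; log2 fold change 1.63) and from 168 ± 20.1 to 809 ± 20.9 CPM with dexamethasone (2.24). It rose in the knockout from 262 ± 47.2 to 631 ± 34.9 CPM with prednisolone (1.23), and the difference between the lines of -0.38 did not pass the test (edgeR adjusted p = 0.122). In CEM CIITA was nearly absent, at 0.0269 CPM untreated and 0.0642 CPM with prednisolone. RFX5, which binds the X box, rose by 0.39 and 0.52 in Nalm6 and by 0.46 and 0.54 in the knockout with prednisolone and dexamethasone.

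NLRC5, the CIITA relative that activates MHC class I genes, fell in Nalm6 from 87.6 ± 2.97 to 63.5 ± 2.23 CPM with prednisolone (-0.49) and from 99.5 ± 4.06 to 77.9 ± 2.07 CPM with dexamethasone (-0.39). In the knockout it stood at 123 ± 13.2 CPM untreated, fell to 103 ± 4.82 CPM with prednisolone (-0.30) and was at 126 ± 3.85 CPM with dexamethasone, where it did not pass the test. CHIR-99021 lowered it in CEM from 75.6 ± 0.168 to 60.2 ± 1.08 CPM (-0.31), and with prednisolone in CEM, given as a description, it was at 87.1 ± 4.94 CPM (0.17). IRF1, an interferon-regulated activator, fell with CHIR-99021 in CEM (-0.29) and Nalm6 (-0.25) and with prednisolone in Nalm6 (-0.44) and the knockout (-0.26); with dexamethasone it fell in Nalm6 (-0.51), and its difference of 0.04 in the knockout did not pass. STAT2, of the interferon pathway, rose by 0.82 and 0.93 in Nalm6, and RUNX1, a haematopoietic factor, fell by 1.28 and 1.55 on the log2 scale with prednisolone and dexamethasone there. SPIB, a B-lineage factor, fell with dexamethasone in Nalm6 from 3.09 to 0.381 CPM (-3.04), and stood in the knockout at 3.39 CPM untreated and 3.99 CPM with dexamethasone, which did not pass (0.25, edgeR adjusted p = 0.205). With prednisolone it fell in Nalm6 from 1.15 to 0.423 CPM (-1.48) and in the knockout from 3.39 to 1.02 CPM (-1.77). Over the 8 Nalm6 and knockout groups, the mean log2 CPM of NLRC5 correlated at 0.86 with BTN3A1 and that of CIITA at 0.96 with BTN2A2. Over all 11 groups these were 0.11 and 0.21. Other pairs were about as close over the 8 groups: BTN2A2 gave -0.99 with RUNX1 and 0.93 with STAT2, and BTN3A3 gave 0.85 with NLRC5. NLRC5, RFX5 and IRF1 and the pairs in the plot were chosen after the values were seen, the groups share controls, and the correlations are descriptions.

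**Figure D4:**
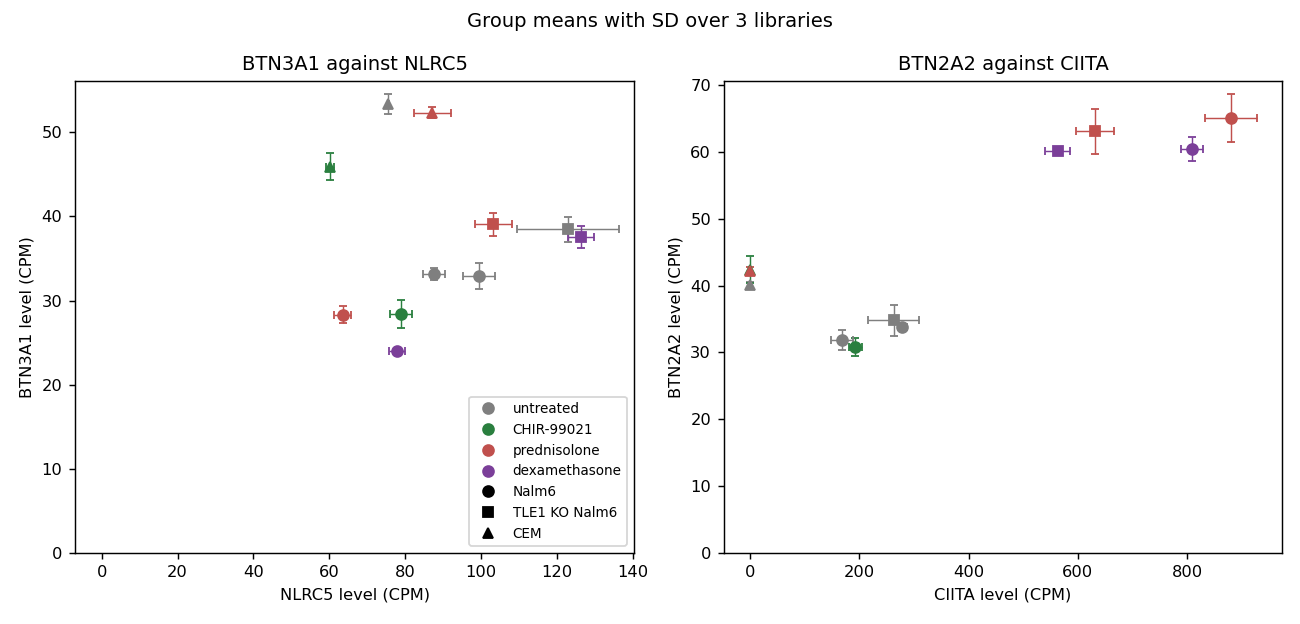
Group means in CPM with SD over 3 libraries: BTN3A1 against NLRC5 (left) and BTN2A2 against CIITA (right), coloured by treatment, with circles for Nalm6, squares for knockout and triangles for CEM. Among the 8 Nalm6 and knockout groups the 3 knockout groups lie highest in both NLRC5 and BTN3A1, and the 4 glucocorticoid groups lie together at high CIITA and high BTN2A2; CEM stands apart in both, with CIITA near 0.

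The enzymes of the mevalonate pathway, which makes the phosphoantigen that BTN3A1 senses, were listed as 9 genes, all tested. In Nalm6 prednisolone and dexamethasone each raised 1 and lowered 6, with medians of -0.31 and -0.17; they called 54.8% and 60.5% of all genes, and 26.1% and 30.2% were lower. In the knockout prednisolone lowered 7, and dexamethasone raised 1 and lowered 7, with medians of -0.48 and -0.24; 21.9% and 26.3% of all genes were lower there. In CEM with prednisolone the median was -0.68, given as a description. MVK, the mevalonate kinase, went from 29.0 to 23.8 CPM with prednisolone in Nalm6 (-0.31). HMGCS1, an early enzyme of the pathway, went from 268 to 163 CPM there (-0.74). FDPS, which consumes the phosphoantigen isopentenyl pyrophosphate, went from 232 to 162 CPM (-0.55). IDI1, which converts that metabolite to its isomer, was the gene that rose in Nalm6, from 192 to 263 CPM with prednisolone (0.42) and from 212 to 335 CPM with dexamethasone (0.62). With CHIR-99021 the medians were 0.03 in Nalm6 and 0.05 in CEM.

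RHOB, a small GTPase reported to act with BTN3A1, rose in Nalm6 from 8.22 ± 0.747 to 54.4 ± 1.09 CPM with prednisolone (2.70) and from 3.99 ± 0.321 to 68.6 ± 2.55 CPM with dexamethasone (4.07). In the knockout it rose from 7.70 ± 0.615 to 33.6 ± 3.89 CPM with prednisolone (2.09), and the difference between the lines was -0.59 (edgeR adjusted p = 0.0112). RHOB was at 0.344 to 0.805 CPM in the CEM groups. The listed other partner, PPL, was under the filter in all of these comparisons. Of the 8 other family genes, 2 were tested with prednisolone in both lines and both rose. Of all genes, 28.7% were higher with prednisolone in Nalm6 and 19.8% in the knockout. The pseudogene BTN2A3P rose by 0.53 in Nalm6 and 0.47 in the knockout, and ERMAP, an erythroid relative, by 0.48 and 0.55. With dexamethasone BTN2A3P rose by 0.29 in Nalm6 and 0.54 in the knockout. ERMAP rose by 0.62 with dexamethasone in Nalm6, and its difference of 0.10 in the knockout did not pass (edgeR adjusted p = 0.295). BTN1A1, the milk-fat butyrophilin, had 0, 2 and 2 counts in the untreated and 53, 40 and 38 counts in the dexamethasone-treated Nalm6 libraries and passed the test there (edgeR adjusted p = 6.36e-07); no fold is given because the control is near 0. Its mean was at most 0.298 CPM in the other 9 groups.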

How the data were processed

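RNA-seq libraries of 11 groups named by the sample titles were compared. The authors deposited read counts per gene in the layout of the aligner STAR, without strand and for each strand; the submitters' processing notes name Bowtie2, DESeq2 and hg19 without their roles, and the annotation is not given in the sources used here. Column 4 held 12.3 to 15.3 times the gene total of column 3 and was used throughout, so values are strand-specific; the 4 rows of totals stayed out. STAR's layout counts uniquely assigned reads, which can lower genes with near-identical relatives.

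Each comparison was fitted on its own groups with edgeR 4.0.16 (R 4.3.3): filterByExpr, TMM, quasi-likelihood F test and Benjamini-Hochberg adjustment over all genes tested, called at an adjusted p under 0.05. The fit was tested on simulated data. Levels are CPM of column 4 (mean ± SD, n = 3), and exon lengths and transcripts are GENCODE v29. A library at 0 allows up to 3 counts; this covers counting error only. Likeness is the Pearson correlation of group mean log2 CPM (prior count 2), with the nearest named for BTNL9, BTN2A1, BTN2A2 and BTN3A1. Of each list, up to 4 genes called in a treatment comparison are named, by absolute log2 fold change, beside those said to be chosen after their values were seen. The members and the gene lists were chosen with earlier results of these data known. Alternatives were DESeq2 1.42.0, RLE scaling, unstranded counts, a minimum of 10 counts per library or no filtering, 1 fit of all 33 libraries, a replicate block and leaving out each library.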

Additional observations from a re-analysis of the deposited data

Results flagged for a closer look

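The prednisolone response of BTNL9 differed between the TLE1 knockout and its parental line by -1.53 in log2, by the test of the difference itself (edgeR adjusted p = 1.65e-07, 3 libraries in each of 4 groups). Every prednisolone-treated knockout library lay below every prednisolone-treated Nalm6 library. Those Nalm6 libraries are numbered in the series apart from the other groups of this test. Whether that goes with a difference between sets was not tested. In the 12 fits that left out 1 library each, the difference ran from -1.58 to -1.47.

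Reads on the strand opposite to BTNL9, which the reported comparisons do not use, were more abundant in the glucocorticoid-treated groups than in their controls. In CEM with prednisolone the opposite strand held 96, 72 and 67 counts (1.98 ± 0.209 CPM), against 1, 0 and 0 counts untreated. In Nalm6 it held 18, 23 and 23 counts with prednisolone (0.480 CPM) against 3, 4 and 2 untreated, and 75, 65 and 66 counts with dexamethasone (1.63 CPM) against 5, 2 and 1. In the knockout it held 7, 6 and 12 counts with prednisolone (0.263 CPM) and 14, 10 and 12 with dexamethasone (0.442 CPM) against 2, 3 and 0 untreated. As a share of the reads on both strands of BTNL9, this was 4.20% to 4.95% per library in CEM with prednisolone and 0.870% to 0.928% in Nalm6 with dexamethasone. In Nalm6 with prednisolone it was 0.509% to 0.804%, overlapping the 0.288% to 0.643% of the untreated libraries, and in the dexamethasone set's untreated libraries it was 0.173% to 0.790%. In untreated CEM 1 of 21 reads lay on the opposite strand, too few to compare. Over all genes, the counted strand (column 4) held 12.3 to 15.3 times the total of the opposite one (column 3). The library preparation is not stated to mark strand, and whether the opposite-strand reads of BTNL9 come from a separate transcript was not tested. For BTN2A2, the opposite strand in Nalm6 held 5, 5 and 4 counts with prednisolone (0.111 CPM) against 3, 1 and 1 untreated.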

How the results depend on the processing

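Of the counts of called genes, those for both glucocorticoids in each line, for CHIR-99021 in CEM, for the knockout under dexamethasone and for CEM against Nalm6 stayed within 1.5 times the reported value under all alternatives. With CHIR-99021 in Nalm6, the 1 call became 2 with DESeq2, 3 without a filter and 3 in the fit of all 33 libraries. It became 0 with a replicate block and 0 to 3 when 1 library was left out, and the cause was not tested. Of 7 alternatives that kept every library, 2 called BTNL9 and 3 called BTN3A3 there. The count for the difference in prednisolone response became 2 with DESeq2, 2 with at least 10 counts in every library, 2 in the fit of all 33 libraries and 1 to 2 when 1 library was left out (2 without untreated knockout library 3), the added gene being BTN3A1. Leaving out 1 library gave 1 to 2 calls for the untreated knockout (1 without untreated Nalm6 library 2) and 1 to 2 for the untreated Nalm6 groups (1 without untreated Nalm6 library 2 or 3). BTNL9 with prednisolone in CEM ran from 7.84 to 8.26. Same-numbered libraries did not deviate together (correlations from -0.14 to 0.10), so the numbers were not taken as pairs, and the replicate block changed no other count. Depth limits BTNL8 in all groups and BTNL9 in untreated CEM, where 6 to 8 counts set the fold.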

Other observations

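Of the 10 genes nearest to BTNL9 on chromosome 5, 5 could be tested in Nalm6, and 2 of them rose and none fell with dexamethasone (median 0.08 over the 5), beside 60.5% of all genes called. In the knockout with dexamethasone 4 of 4 tested rose, where 52.3% of all genes were called and 26.0% were higher. That comparison crosses patterns of file names. With prednisolone 0 of 4 were called in the knockout and 1 of 5 in Nalm6, beside 41.7% and 54.8% of all genes. Between the 2 untreated Nalm6 groups 3 of 5 differed, all higher in the dexamethasone set (median 0.31), beside 50.2% of all genes. MGAT1, an enzyme of N-glycan synthesis, went from 93.6 ± 4.06 to 173 ± 1.80 CPM with dexamethasone in Nalm6 (0.85, edgeR adjusted p = 2.30e-10). With prednisolone it changed by 0.33 in Nalm6, and by 0.17 in the knockout, where it did not pass the test (edgeR adjusted p = 0.0526). TRIM41, a ubiquitin ligase, changed by 0.15 with dexamethasone in Nalm6 and 0.59 in the knockout. Of the 10 genes that flank the BTN3A2 to BTN2A1 span on chromosome 6, where histone genes lie, 8 were tested with dexamethasone in Nalm6: 1 rose and 6 fell, with a median of -0.45, beside 60.5% of all genes called and 30.2% lower. The histone genes H2BC10 and H2BC11 fell by 0.87 each on the log2 scale.

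The listed B7 family, the co-stimulatory and inhibitory ligands related to butyrophilins, was low in these lines. ICOSLG, the ligand of ICOS, was at 6.74 CPM in the untreated knockout and fell to 4.17 CPM with prednisolone (-0.73) and 3.04 CPM with dexamethasone (-1.13), and the difference from the parental prednisolone response was -0.58 (edgeR adjusted p = 0.0439). HHLA2 rose with prednisolone in Nalm6 from 0.318 to 0.672 CPM (1.09). CD274 fell with dexamethasone in Nalm6 from 1.91 to 1.15 CPM (-0.77, edgeR adjusted p = 6.31e-04). Its difference of 0.32 with dexamethasone in the knockout did not pass the test. Of the gamma-delta receptor chains, TRGC2 was at 8.98 to 11.7 CPM in the CEM groups and at 0 in all Nalm6 and knockout groups. TRDC was at most 0.0157 CPM, and both genes were chosen after their values were seen. TRGV9 went the other way, at 1.69 to 5.18 CPM in the Nalm6 and knockout groups and at most 0.00784 CPM in CEM. Prednisolone raised TRGV9 from 2.88 to 4.48 CPM in Nalm6 (0.64) and from 1.69 to 5.18 CPM in the knockout (1.59). The difference between these responses, 0.99, passed edgeR's test. With dexamethasone TRGV9 rose in Nalm6 (0.49) and, across patterns of file names, in the knockout (0.87). TRDV2, at most 0.637 CPM in any group, rose with CHIR-99021 in Nalm6 (1.40) and fell with dexamethasone there (-2.53).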
